A study of Homo sapiens with 88 samples.

Results

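H2171 is an established human small cell lung cancer (SCLC) line with amplified MYC. It was profiled on 4 of the 88 Affymetrix HG-U133 Plus 2.0 arrays of the series. H2171 cells had received 552A for 4 days (2 arrays) or the vehicle DMSO for 4 days (2 arrays). These 4 arrays were picked by the line named in the sample titles, and no other arrays used here came from this line. The other 8 lines, COLO668, H1417, H69, NCI-H146, NCI-H446, NCI-H510, NCI-H526 and SHP-77, gave 33 arrays at day 4 under the same 2 treatments, and H2171 was set against their mean response. All cells grew in RPMI with fetal bovine serum and were of multiple passages. The treatment protocol names DMSO and 1 µM GSK2879552, which inhibits the histone demethylase LSD1, but no label says that 552A is that compound. The arm is therefore called 552A. The design text speaks of lines sensitive and lines resistant to growth inhibition, and the labels do not place H2171 in either class. The labels do not say whether the 2 arrays of a treatment are separate cultures, and the p-values measure only the spread between arrays, which may be technical.

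Most SCLC tumours express neuroendocrine and neuronal genes. LSD1, encoded by KDM1A, removes methyl groups from histone H3 at sites that mark active promoters and enhancers. It works in a complex with CoREST and histone deacetylases, and repressors with a SNAG domain, such as INSM1, GFI1B and SNAI2, bring it to their target genes.

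The values are log2 signals of probe sets, and a change is 552A minus DMSO on that scale, so that 1 unit is a factor of 2. Of 15352 genes tested with limma, a gene is called at an adjusted p below 0.05. A signal under 6.09 is called dim, a limit set at the median of the arrays' lower quartiles, and a change from or to a dim level may be a lower limit. The medians of the 4 H2171 arrays lay within 0.014 of each other. The 3' minus 5' signal of ACTB, which grows as RNA degrades, was -0.053 and 0.002 under 552A and -0.013 and -0.106 under DMSO. The SD of the difference between the 2 arrays of a group over all genes was 0.148 under 552A and 0.175 under DMSO, against a median of 0.158 (0.12 to 0.53) in the other groups of the series. In the other lines, 6 arrays stood apart: 5 of day 7 with that ACTB value above 0.8, and NCI-H446 DMSO day 4 replicate 2 with a narrow range of values. They enter the pooled estimate of spread. Without them, 662 genes were called in H2171 in place of 308, and all 308 were among the 662.

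The label was checked against marker genes. All 8 of the SCLC markers with a probe set, among them CHGA, SYP, NCAM1 and INSM1, had a mean above 7.41, the median of all values. Of 15 immune markers with a probe set, 4 were dim, including the pan-leukocyte marker PTPRC at means of 4.69 under 552A and 4.93 under DMSO, and 3 lay above 7.41. By the same measure 4 of 10 fibroblast markers lay above 7.41, with COL1A1 at 10.15 under 552A and 9.87 under DMSO, and 4 of 7 endothelial markers, with CLDN5 at 9.35 under 552A and 9.50 under DMSO. Over the 15 immune markers the mean signals on the linear scale summed to 1775 under 552A and 1832 under DMSO. Over the 7 endothelial markers they summed to 1485 under 552A and 1561 under DMSO, and over the 8 SCLC markers to 51641 under 552A and 51819 under DMSO. Over the 10 fibroblast markers they summed to 2432 under 552A and to less under DMSO, the only one of these lists with a higher sum under 552A. COL1A2 was among those that were higher, at 8.51 under 552A and 7.88 under DMSO. Over the 9 fibroblast markers tested, the arrays summed to 1503 and 1625 under 552A and to 1454 and 1474 under DMSO. No marker tested of immune (0 of 5), fibroblast (0 of 9) or endothelial cells (0 of 6) was called by limma, and 1 fibroblast marker had an unadjusted p below 0.05. Against the mean response of the other lines, 1 fibroblast marker had a called difference above 0.

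Treatment with 552A raised 220 genes (1.43% of those tested) and lowered 88 (0.573%), together 2.01%. The 3 largest rises were those of PLEKHB1, a pleckstrin homology domain protein, FOS, a subunit of the AP-1 transcription factor, and DLL1, a Notch ligand. The largest falls were those of CHRNA3 and CHRNB4, which encode subunits of one neuronal nicotinic acetylcholine receptor. Most changes were small, and 32 of the genes that rose and 11 of those that fell changed at least by a factor of 2 (1 log2 unit). The median change over all genes was -0.02, and 1382 genes had an unadjusted p below 0.05. Of the 308 called genes, 11 were dim in both arms.

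KDM1A, the gene of the demethylase itself, had signals of 12.70 and 12.65 under 552A and 12.73 and 12.74 under DMSO. The change was -0.06 ± 0.09 (SE, adjusted p = 0.949, limma), smaller than its error. A change in the enzyme's activity would not be seen in this measurement.

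CHRNA3, the alpha subunit, had signals of 8.51 and 8.53 under 552A and 10.73 and 10.48 under DMSO. Both 552A arrays lay far below both DMSO arrays, and the change was -2.08 ± 0.15 (SE, adjusted p = 6.03e-15). Its 2 other probe sets changed by -1.34 and -1.31. CHRNB4, the beta subunit that pairs with it, had 6.05 and 5.86 under 552A and 8.19 and 7.61 under DMSO, a change of -1.95 ± 0.13 (adjusted p = 4.87e-17). The 552A level was dim, so that the fall may be larger than measured. Under DMSO, H2171 was the only line with CHRNB4 above the dim limit, at a mean of 7.90, with the other 8 lines between 5.10 and 5.91. CHRNA3 stood second of the 9 lines, whose other means ran between 6.73 and 12.29. CHRNA5, the accessory subunit whose gene neighbours CHRNA3, had 9.93 and 9.99 under 552A and 10.39 and 10.29 under DMSO, a change of -0.38 ± 0.15 that did not pass the test (adjusted p = 0.304). PSMA4, a proteasome subunit on the far side of CHRNA5, and MORF4L1, a chromatin reader beyond CHRNB4, had changes of -0.26 and -0.09 and were not called.

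The starts of CHRNA3 and CHRNB4 are shown because both genes fell and lie side by side on chromosome 15. The sequences are RefSeq promoters of build GRCh38.p14, both on the minus strand, with 250 bases before and 50 after the start. Capitals mark the E-box CAGGTG on either strand (read as CACCTG on the other), a sequence that the zinc finger repressors SNAI2 and ZEB1 are known to bind.
CHRNA3 (chr15:78620947-78621246): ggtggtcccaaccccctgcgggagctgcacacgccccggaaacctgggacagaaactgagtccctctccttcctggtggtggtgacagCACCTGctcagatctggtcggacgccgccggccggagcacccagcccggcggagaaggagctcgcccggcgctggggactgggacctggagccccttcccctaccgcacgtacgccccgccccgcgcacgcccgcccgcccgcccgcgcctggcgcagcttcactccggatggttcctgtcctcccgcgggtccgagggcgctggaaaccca
CHRNB4 (chr15:78641161-78641460): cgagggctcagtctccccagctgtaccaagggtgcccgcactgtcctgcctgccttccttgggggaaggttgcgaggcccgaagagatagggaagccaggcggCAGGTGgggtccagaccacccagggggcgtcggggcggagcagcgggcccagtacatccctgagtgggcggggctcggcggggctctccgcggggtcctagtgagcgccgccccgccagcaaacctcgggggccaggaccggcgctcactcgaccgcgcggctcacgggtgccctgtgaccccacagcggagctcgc
Each promoter held 1 such box, CACCTG beginning 162 bases before the start of CHRNA3 and CAGGTG 147 bases before that of CHRNB4. The box is common: it was found in 20.6% of 35116 promoters of that length. Counted by gene, with a box in any promoter of the gene, the share was 24.9% of the 12236 tested genes with a promoter. By the same count it was 30.0% of 70 called genes that fell and 31.0% of 171 that rose. The share of promoters and the shares of genes are unlike measures. A match of letters shows no binding.

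The plot of levels by array gives the 12 largest called changes in each direction, chosen among genes whose 552A arrays both lay on one side of both DMSO arrays.

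**Figure D1:**
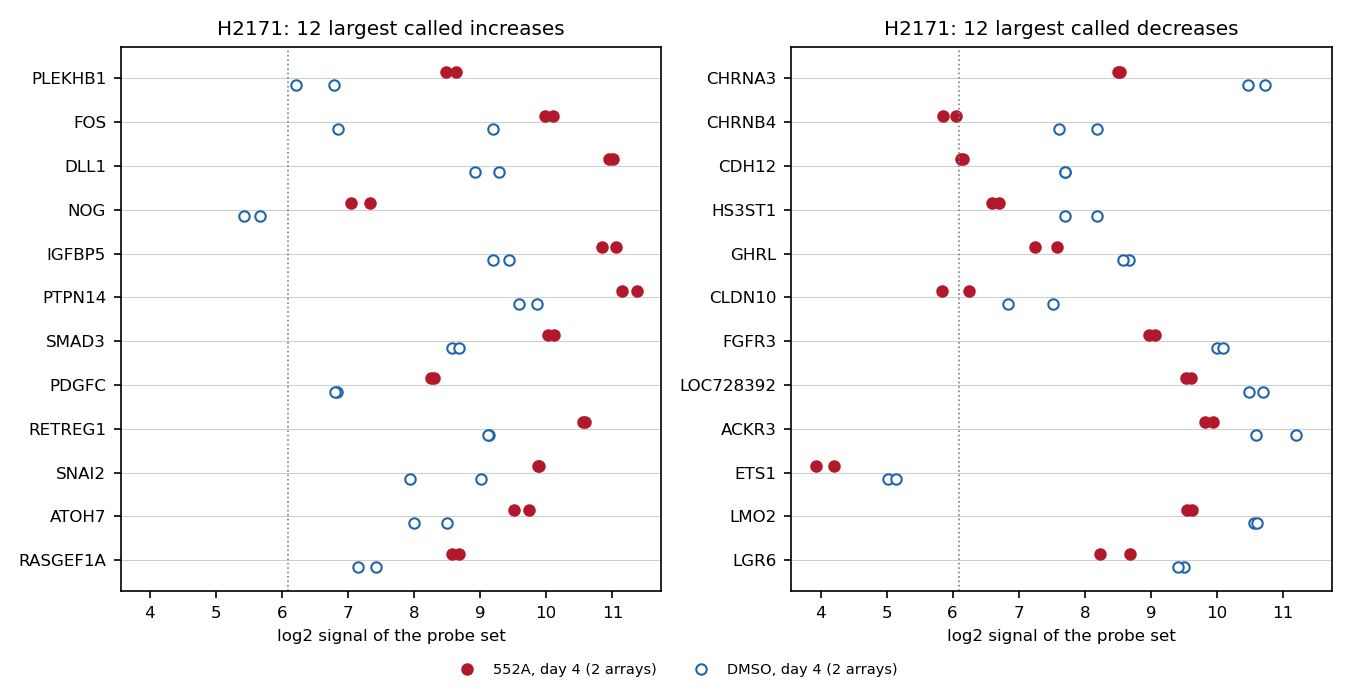
Signals (log2, x axis) of the 12 genes with the largest called increase (left panel) and decrease (right panel) in H2171 at day 4, with filled points for the 2 arrays under 552A and open points for the 2 under DMSO. The dotted line is the dim limit of 6.09. The widest gaps between arrays of 1 treatment are those of FOS, whose DMSO arrays read 6.85 and 9.19, and SNAI2, whose DMSO arrays read 9.01 and 7.94.

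Among the 12 largest rises were those of several secreted or membrane-bound signalling proteins. DLL1, a ligand that activates Notch receptors on neighbouring cells, had 10.94 and 11.01 under 552A and 9.29 and 8.92 under DMSO, a change of 1.87 ± 0.20 (adjusted p = 3.32e-09). NOG, a secreted protein that binds BMPs and keeps them from their receptors, had 7.05 and 7.34 under 552A and 5.67 and 5.43 under DMSO, and its DMSO level was dim (1.64 ± 0.31, adjusted p = 0.00039). PDGFC, a growth factor for PDGF receptors, had 8.25 and 8.30 under 552A and 6.84 and 6.81 under DMSO (1.45 ± 0.20, adjusted p = 6.22e-07). Separate arrays were part of the rule by which these genes were chosen, and each of the 3 calls held whichever array was left out. IGFBP5, a secreted binding protein of insulin-like growth factors, read 11.05 and 10.84 under 552A and 9.20 and 9.44 under DMSO, a change of 1.63 ± 0.24 (adjusted p = 5.77e-06). All 6 probe sets of IGFBP5 were higher under 552A, the other 5 by 0.20 to 0.92. DLL1 had a dimmer probe set with a change of 0.47.

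Within the cell, SMAD3, a transcription factor of the TGF-beta pathway, read 10.12 and 10.03 under 552A and 8.57 and 8.68 under DMSO, a change of 1.45 ± 0.16 (adjusted p = 3.48e-09). Its 3 other probe sets changed by 0.65 to 0.95. PTPN14, a tyrosine phosphatase that holds the growth regulator YAP out of the nucleus, read 11.37 and 11.15 under 552A and 9.86 and 9.58 under DMSO (1.54 ± 0.20, adjusted p = 4.27e-07). Its 3 other probe sets were also higher under 552A, by 0.51 to 2.14. RETREG1, a receptor through which the endoplasmic reticulum is degraded by autophagy, read 10.56 and 10.58 under 552A and 9.13 and 9.12 under DMSO, a change of 1.44 ± 0.12 (adjusted p = 2.43e-13). RASGEF1A, an exchange factor for RAS-type GTPases, rose by 1.34 ± 0.17 (adjusted p = 1.18e-07). PLEKHB1, the gene with the largest rise, had 8.48 and 8.63 under 552A and 6.22 and 6.78 under DMSO (2.06 ± 0.20, adjusted p = 1.06e-10). The value rests on 1 of its 3 probe sets, as the other two changed by 0.06 and -0.29.

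Among transcription factors, ATOH7, which specifies retinal ganglion cells, read 9.51 and 9.74 under 552A and 8.50 and 8.0 under DMSO, a change of 1.38 ± 0.17 (adjusted p = 6.54e-08), and its other probe set changed by 1.11. SNAI2, a SNAG domain repressor that recruits LSD1, read 9.88 and 9.89 under 552A and 9.01 and 7.94 under DMSO (1.41 ± 0.28, adjusted p = 0.000842). Without DMSO replicate 2, its lower control, the change of SNAI2 was 0.87 and was not called (adjusted p = 0.307). FOS read 10.10 and 9.98 under 552A and 6.85 and 9.19 under DMSO. Its change of 2.02 ± 0.52 (adjusted p = 0.0195) turned on the 2 DMSO arrays, which lay 2.34 apart. Without DMSO replicate 1 the change of FOS was 0.85 (adjusted p = 0.898), and the call was also lost without 552A replicate 1 (1.96, adjusted p = 0.194) or 552A replicate 2 (2.08, adjusted p = 0.128).

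Beside the nicotinic receptor genes, the genes that fell included cell adhesion molecules and receptors. CDH12, a cadherin of neurons, read 6.16 and 6.12 under 552A and 7.70 and 7.70 under DMSO, a change of -1.56 ± 0.20 (adjusted p = 3.14e-07). LGR6, a receptor for the Wnt-enhancing R-spondins, read 8.22 and 8.69 under 552A and 9.50 and 9.40 under DMSO (-0.99 ± 0.16, adjusted p = 3.47e-05). FGFR3, a fibroblast growth factor receptor, read 8.97 and 9.07 under 552A and 10.00 and 10.09 under DMSO (-1.03 ± 0.24, adjusted p = 0.00768). The call of FGFR3 was lost whichever array was left out, with changes between -1.08 and -0.98, and its other, dim probe set changed by -0.15. ACKR3, a scavenging receptor for the chemokine CXCL12, changed by -1.02 ± 0.22 (adjusted p = 0.00237), and without 552A replicate 1 or DMSO replicate 1 it was not called, its leave-one-out changes running between -1.32 and -0.72. CLDN10, a claudin of tight junctions, changed by -1.13 ± 0.25 (adjusted p = 0.00335). Without 552A replicate 2 or DMSO replicate 2 it was not called (leave-one-out changes -1.47 to -0.79), and its other probe set was higher under 552A by 0.24.

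GHRL, which encodes the hormone ghrelin, read 7.25 and 7.58 under 552A and 8.67 and 8.58 under DMSO (-1.21 ± 0.12, adjusted p = 2.08e-10). Under DMSO it was highest in H2171 of the 9 lines, with the others between 6.45 and 6.78, while its other probe set changed by -0.07. LMO2, an adaptor of haematopoietic transcription factors, read 9.55 and 9.62 under 552A and 10.57 and 10.61 under DMSO (-1.01 ± 0.16, adjusted p = 2.55e-05), and its other probe set changed by -1.19. HS3ST1, an enzyme that sulfates heparan sulfate, changed by -1.30 ± 0.22 (adjusted p = 8.64e-05), although its other probe sets changed by -0.34 and 0.02. The uncharacterised gene LOC728392 changed by -1.02 ± 0.15 (adjusted p = 5.77e-06). ETS1, a transcription factor, was dim in both arms, at 3.93 and 4.20 under 552A and 5.02 and 5.14 under DMSO, and its brighter probe sets changed by -0.08 and -0.04.

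**Figure D2:**
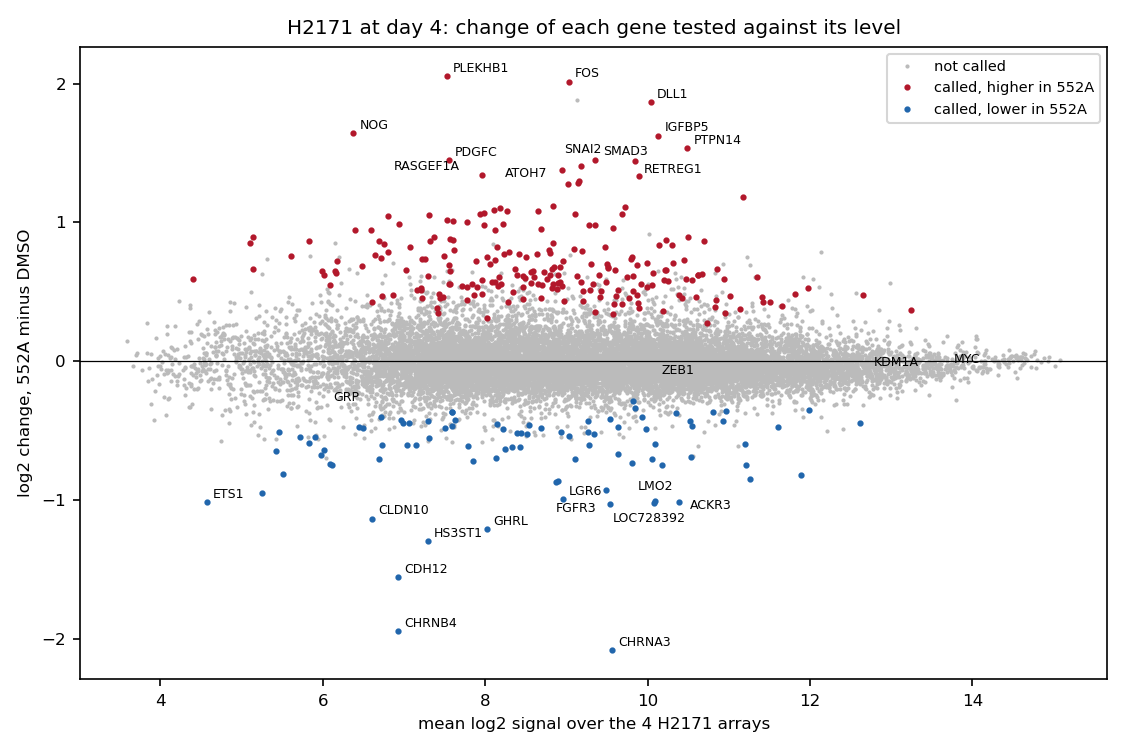
Change of each of the 15352 genes in H2171 (y axis, log2, 552A minus DMSO) against its mean log2 signal over the 4 arrays (x axis). The 220 genes called higher under 552A (red) and the 88 called lower (blue) are spread over low and high levels, and KDM1A and MYC, at the right, lie at changes of -0.06 and -0.04.

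The called genes were often moderate in level. Of the 220 that rose, 26.4% had a DMSO mean below 7.41, and 22 of the 88 that fell did, against 18.2% of all genes tested. Under DMSO, 6.4% of the genes that rose and 6.8% of those that fell were dim, against 5.0% of all. Among the 88 that fell, 22 were higher in H2171 under DMSO than in any other line, where 14.2% of all genes tested were. CHRNB4, GHRL, FGFR3 and LOC728392 were among these 22. Of the genes that rose, 15.9% were highest in H2171. The share lowest in H2171 was 13.2% of those that rose and 12.5% of those that fell, against 8.2% of all. The same 2 DMSO arrays enter both the change and the rank, so these shares are a description only.

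Lists of genes were then counted, chosen by pathway and cell type, and the plot of list members shows their changes. In the Notch pathway, 3 of 31 tested genes rose (9.68% called, against 2.01% of all genes) and 0 fell in limma (2 had a lower signal at an unadjusted p below 0.05), with a median change of 0.00. DLL1 was joined by HES1, a repressor that Notch receptors switch on, with 9.91 and 9.85 under 552A and 9.12 and 8.99 under DMSO (0.82 ± 0.21, adjusted p = 0.0151). The 2 other probe sets of HES1 changed by 0.53 and -0.10. HEY1, another Notch-induced repressor, read 11.67 and 11.62 under 552A and 11.15 and 10.93 under DMSO (0.61 ± 0.14, adjusted p = 0.00548), and its other probe set changed by 0.55. The receptor NOTCH2 had a change of 0.31 and the inhibitory ligand DLL3 of -0.17, and neither was called. HES1 was not called whichever array was left out, with changes between 0.76 and 0.89, and HEY1 kept its call in 1 of the 4 cases, with changes between 0.50 and 0.72. DLL1 kept it in all 4.

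Of 36 epithelial genes tested, 4 rose and 0 fell in limma (11.11%; 8 rises and 1 fall at an unadjusted p below 0.05), with a median of 0.08. OVOL2, a zinc finger factor that maintains the epithelial state, read 9.60 and 9.71 under 552A and 8.39 and 8.38 under DMSO (1.27 ± 0.16, adjusted p = 1.18e-07). The keratin KRT19 read 9.06 and 9.31 under 552A and 8.21 and 8.55 under DMSO (0.81 ± 0.19, adjusted p = 0.00606). The epithelial transcription factor ELF3 changed by 0.55 and the tight junction protein OCLN by 0.42. OVOL2 kept its call whichever array was left out. The other 3 lost theirs in 2 or 3 of the 4 cases, with changes of 0.64 to 0.97 for KRT19, 0.32 to 0.79 for ELF3 and 0.35 to 0.48 for OCLN. Of 47 mesenchymal genes, 1 rose, SNAI2, and 1 fell, the basement membrane collagen COL4A2 (-0.70 ± 0.20, adjusted p = 0.0445), which was not called without 552A replicate 1 or DMSO replicate 2 (leave-one-out changes -1.07 to -0.34). Of the mesenchymal genes, 4.26% were called, beside 2.01% of all genes, and their median was -0.01, beside -0.02 for all genes.

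In TGF-beta and BMP signalling, NOG and SMAD3 were the called members of 39 (5.13%, against 2.01% of all genes), with a median of 0.05. In the YAP and TEAD pathway, 2 of 25 rose (8.0%), PTPN14 and AMOTL2, an angiomotin that also binds YAP. YAP1 itself had a change of 0.17 at a dim level. AMOTL2 changed by 0.76 ± 0.20 (adjusted p = 0.0239) and lost its call whichever array was left out, with changes between 0.64 and 0.89. Of 29 members of the LSD1 complex and the repressors that recruit it, SNAI2 was the one called (3.45%). INSM1 changed by 0.14, GFI1B by -0.06, REST by -0.01 and HMG20B, a subunit of the complex, by -0.03.

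Of 31 neuroendocrine markers, 1 rose and 2 fell (9.68% called), and the median was -0.07. CHGA, the granule protein chromogranin A, read 10.28 and 10.35 under 552A and 10.75 and 10.80 under DMSO (-0.46 ± 0.09, adjusted p = 0.000887). Its DMSO mean was the lowest of the 9 lines, with the others between 11.51 and 13.56. NCAM1, a neural adhesion molecule, changed by -0.43 ± 0.10 (adjusted p = 0.00455), and the neuropeptide NPY by 0.51 ± 0.14 (adjusted p = 0.041). The call of CHGA held whichever array was left out. That of NCAM1 was lost without 552A replicate 2 or DMSO replicate 1 (changes -0.58 to -0.29), and that of NPY whichever array was left out (0.46 to 0.57). GRP, a neuropeptide of many SCLC lines, was near the dim limit at 6.48 and 5.30 under 552A and 6.76 and 5.66 under DMSO, and within each treatment its 2 arrays lay further apart than the treatment means. Of 25 neuroendocrine and neural transcription factors (8.0% called), SOX2 was called higher (0.87) and ISL1, a LIM homeodomain factor, lower (-0.62 ± 0.16, adjusted p = 0.0183). The SOX2 probe set was near the dim limit in both arms, with 6.17 and 6.36 under 552A and 5.33 and 5.46 under DMSO, and its 3 other probe sets changed by -0.37, -0.01 and 0.00. ISL1 lost its call whichever array was left out, with changes between -0.67 and -0.57, and SOX2 lost it without 552A replicate 2 (changes 0.77 to 0.97).

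Neurotransmitter receptors gave the largest called share among lists of over 20 tested genes, with 14.29% of 21. Beside CHRNA3 and CHRNB4, which fell, CHRNA1, the muscle-type nicotinic subunit, read 10.73 and 10.82 under 552A and 10.24 and 10.12 under DMSO (0.60 ± 0.17, adjusted p = 0.0428). CHRNA1 was thus higher under 552A while the neuronal subunits were lower, but its call was lost whichever array was left out, with changes between 0.54 and 0.65. Limma called 0 of 36 potassium, sodium and calcium channels (4 at an unadjusted p below 0.05), and the largest change there was -0.39 for the sodium channel SCN8A. Of 32 genes of synaptic vesicle exocytosis (3.12% called), the vesicle protein SYNGR3 rose (0.55 ± 0.15, adjusted p = 0.0283), although without 552A replicate 2 or DMSO replicate 1 it was not called (changes 0.39 to 0.71). In axon guidance and cell adhesion (6.38% of 47 called), the secreted semaphorin SEMA3C rose by 1.02 ± 0.19 (adjusted p = 0.000304), with 7.95 and 8.13 under 552A and 6.88 and 7.17 under DMSO, and kept its call whichever array was left out. The semaphorin receptor PLXNA2 changed by 0.56 and the netrin receptor UNC5A by -0.61, both called and each keeping its call in 1 of the 4 leave-one-out cases (0.43 to 0.68 and -0.80 to -0.43).

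Genes of proliferation were next. Of 51 genes of S phase and mitosis, all with H2171 means above 7.41, 0 were called by limma and 3 had an unadjusted p below 0.05. The changes ran between -0.19 and 0.40, with a median of -0.01, and the proliferation antigen MKI67 had 0.04. MYC read 13.68 and 13.65 under 552A and 13.67 and 13.75 under DMSO (-0.04 ± 0.21, adjusted p = 0.989), and its DMSO mean of 13.71 was the highest of the 9 lines. Of 32 MYC targets in ribosome and nucleotide synthesis (3.12% called), the spermidine synthase SRM was called, at -0.36 ± 0.10 (adjusted p = 0.0322), and lost its call whichever array was left out (-0.38 to -0.35). Only 5 of these 32 targets had a change above 0, and their median was -0.10, where 6746 of the 15352 genes tested lay above 0. In cell cycle arrest and apoptosis, 2 of 38 rose and 0 fell in limma (5.26% called): BAX, which permeabilises mitochondria, by 0.62 ± 0.13 (adjusted p = 0.00261) and the cyclin CCND1 by 0.48 ± 0.14 (adjusted p = 0.0409). At an unadjusted p below 0.05 this list held 3 rises and 6 falls, and 19 of the 38 lay above 0. BAX was not called without 552A replicate 1 or DMSO replicate 2 (0.48 to 0.76), and CCND1 was called in 1 of 4 cases (0.22 to 0.75). CDKN1A, the p53-induced inhibitor of cell division, had a change of 0.11.

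In the lists of stress and immune genes, 2 members each were called, 6.25% in amino acid and unfolded protein stress, 11.11% in class I antigen presentation and 6.45% in the interferon response, against 2.01% of all genes. SLC7A11, the cystine transporter, read 8.31 and 8.56 under 552A and 9.38 and 9.23 under DMSO (-0.87 ± 0.21, adjusted p = 0.00824), and CBS, which makes cystathionine from homocysteine, changed by -0.43 ± 0.11 (adjusted p = 0.0112). They were the called members of 32 genes of amino acid and unfolded protein stress, of which 6 had a change above 0 (median -0.11). SLC7A11 kept its call in 2 of 4 cases (-0.99 to -0.75) and CBS in 1 (-0.49 to -0.38). Of 18 class I antigen presentation genes, 7 had a change above 0 (median -0.06). At an unadjusted p below 0.05 there were 2 rises and 2 falls. The 2 called by limma rose: B2M, the light chain of class I molecules, by 0.37 ± 0.08 (adjusted p = 0.0043), and PDIA3, a chaperone of their assembly, by 0.53 ± 0.12 (adjusted p = 0.00425). Each kept its call in 2 of 4 cases (B2M 0.31 to 0.43, PDIA3 0.38 to 0.68), and the 2 other probe sets of PDIA3 changed by -0.16 and -0.20. In the interferon response, PARP12 was higher (0.68 ± 0.17, adjusted p = 0.0136) and the RNA sensor RIGI lower (-0.60 ± 0.12, adjusted p = 0.000728) among 31. PARP12 was not called whichever array was left out (0.61 to 0.75) and RIGI was called in 2 of 4 cases (-0.83 to -0.37), while the other probe sets of RIGI changed by 0.37 and 0.17.

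Immediate early and AP-1 genes had the highest median of the 25 lists, 0.17, with 29 of 34 above 0 and 5.88% called, against 2.01% of all genes. FOS and ZFP36L1, which destabilises messenger RNAs, were called, and EGR1, a zinc finger factor induced within minutes of a stimulus, had a change of 1.88 that was not. ZFP36L1 was dim in both arms, at 5.52 and 5.64 under 552A and 4.73 and 4.65 under DMSO, and lost its call whichever array was left out (0.84 to 0.95). In the lists of HOX genes (25 tested), DNA methylation and polycomb (24), cholesterol and fatty acid synthesis (25), the tuft cell program (17) and the MYC family with its MAX network (13), limma called 0. At an unadjusted p below 0.05 these lists held 1, 1, 1, 0 and 2 genes. Of 4 myeloid differentiation genes tested, CEBPA, a factor that drives granulocyte differentiation, rose, with 9.23 and 9.15 under 552A and 8.48 and 8.34 under DMSO (0.78 ± 0.16, adjusted p = 0.00126). It was not called without DMSO replicate 2 (0.71 to 0.85).

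**Figure D3:**
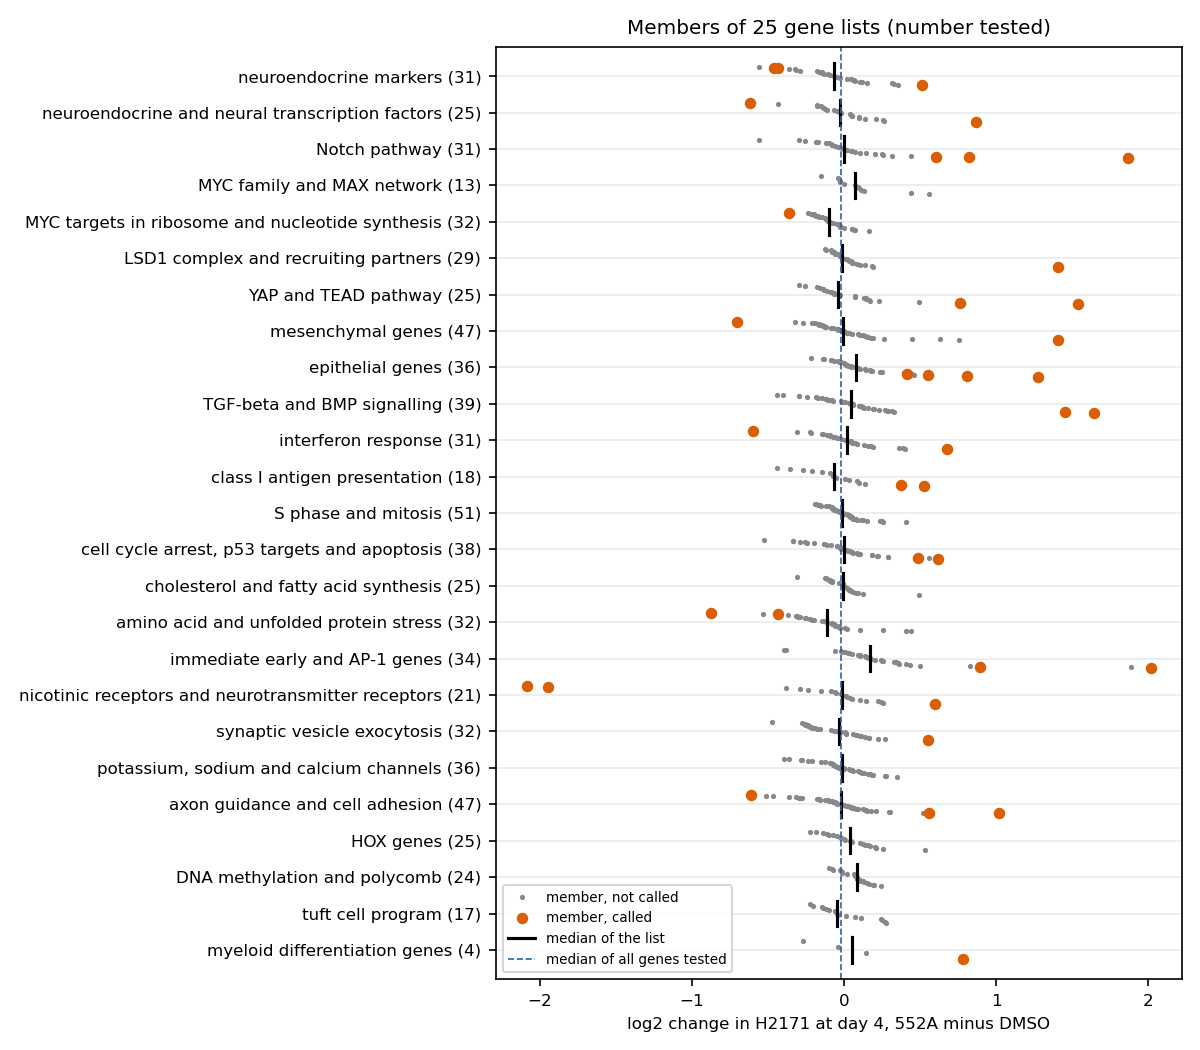
Change in H2171 at day 4 (x axis, log2, 552A minus DMSO) of each tested member of 25 gene lists, with the number tested beside each name. Orange points are called members, black bars list medians and the dashed line the median of all genes, -0.02. Most members lie within 0.5 of 0, and single members such as CHRNA3, CHRNB4, DLL1 and FOS lie far from their list's median.

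The next comparison asked where H2171 responded differently from the other lines: its change minus the mean change of the other 8 at day 4, with the difference itself tested. It was called for 280 genes (1.82%), with 164 differences above 0 (1.07%) and 116 below 0 (0.756%), and 1490 had an unadjusted p below 0.05. Without the 6 arrays that stood apart, 608 were called, including all 280. A difference from the mean of 8 lines does not show that H2171 differed from each of them, and single lines are therefore given beside it.

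The largest differences below 0 included those of CHRNB4 and CHRNA3. CHRNB4 changed by -1.95 in H2171 and by -0.15 to 0.27 in the other lines, where it was dim, a difference of -1.93 ± 0.13 (adjusted p = 7.54e-16). CHRNA3 differed by -1.79 ± 0.16 (adjusted p = 1.4e-11), but it was also called lower in H1417 (-0.98), NCI-H510 (-0.56), NCI-H446 (-0.53) and H69 (-0.51) and higher in COLO668 (0.50). CDH12 differed by -1.77 ± 0.22 (adjusted p = 6.93e-08), as it changed by -1.56 in H2171 and on average by 0.22 elsewhere, with 1.20 in NCI-H526, where it was called higher. CLDN10 differed by -1.34 ± 0.26 (adjusted p = 0.00109) and was called higher in NCI-H526, at 1.32. This difference was not called without 552A replicate 2 or DMSO replicate 2 of H2171 (-1.13, adjusted p = 0.0726, and -0.996, adjusted p = 0.125).

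IGFBP5 had the largest difference above 0, 2.07 ± 0.26 (adjusted p = 9.79e-08), with a change of 1.63 in H2171 and -0.45 on average elsewhere. In NCI-H446 it was called lower, at -1.79. The day 4 DMSO group of NCI-H446 had 3 arrays, 1 of them the array that stood apart, and its changes without that array are not given. PLEKHB1 differed by 1.59 ± 0.21 (adjusted p = 8.23e-07) and DLL1 by 1.52 ± 0.22 (adjusted p = 3.24e-06), and both were also called higher in H69, at 1.68 and 1.46. ATOH7 stayed between -0.46 and 0.21 in the other lines, so that its difference equalled its change, 1.38 ± 0.18 (adjusted p = 2.81e-07). NEB, the thin filament protein nebulin of skeletal muscle, read 11.86 and 11.67 under 552A and 10.65 and 10.52 under DMSO in H2171, a change of 1.18, against a mean of -0.23 elsewhere (difference 1.41 ± 0.16, adjusted p = 7.7e-09). RASGEF1A differed by 1.30 and NOG by 1.26, with changes of 1.34 and 1.64 in H2171, and both were also called higher in NCI-H446, at 1.70 and 2.11. SMAD3 (1.17) and RETREG1 (1.17) also differed, and SMAD3 was called higher in H69 (0.66) and NCI-H510 (0.59). RETREG1 was called higher in NCI-H510 (0.55), NCI-H526 (0.54), COLO668 (0.43) and NCI-H446 (0.35). For PTPN14, with 1.54 in H2171 and 0.48 to 1.69 in the others, the difference did not pass the test (0.41 ± 0.22, adjusted p = 0.56).

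Other differences were those of genes that were not called in H2171 itself. ZEB1, a zinc finger repressor of epithelial genes, read 10.00 and 10.05 under 552A and 10.32 and 9.99 under DMSO in H2171 (-0.13 ± 0.15, adjusted p = 0.933), while the other lines changed on average by 1.36, with 3.11 in NCI-H526 and 2.42 in H1417. It was not called in NCI-H146 (0.52), NCI-H446 (0.23) or SHP-77 (-0.19) either. The difference was -1.49 ± 0.16 (adjusted p = 1.38e-09), and 2 of the 9 lines had a higher DMSO level of ZEB1 than H2171. VIM, the mesenchymal intermediate filament vimentin, read 7.93 and 7.80 under 552A and 7.81 and 7.66 under DMSO in H2171, a change of 0.14 against a mean of 1.15 elsewhere (difference -1.01 ± 0.18, adjusted p = 0.000266). VIM was called higher in H1417, NCI-H146, NCI-H446 and NCI-H510, by 1.29 to 2.52, and was not called in NCI-H526, H69, COLO668 or SHP-77, with changes of 0.13 to 0.34. NKX2-2, a homeodomain factor of neuroendocrine cells, read 8.76 and 8.90 under 552A and 9.09 and 8.86 under DMSO, a change of -0.15, where H1417 changed by -5.40, NCI-H146 by -2.12, H69 by -1.99 and SHP-77 by -1.50. In the other 4 lines NKX2-2 was not called, as in H2171, with changes of -0.69 to 0.18. Its difference of 1.33 ± 0.24 (adjusted p = 0.000279) lost its call without H1417 among the other lines (0.77, adjusted p = 0.103). UMODL1 changed by -0.35 in H2171 and by 1.10 on average elsewhere (difference -1.45 ± 0.17, adjusted p = 3.4e-08). SEPTIN10, a cytoskeletal GTPase, changed by 0.26 from a DMSO level that was the highest of the 9 lines, against a mean of 0.99 elsewhere (difference -0.74 ± 0.14, adjusted p = 0.000439), and lost its call without NCI-H526 among the other lines (-0.37, adjusted p = 0.218).

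**Figure D4:**
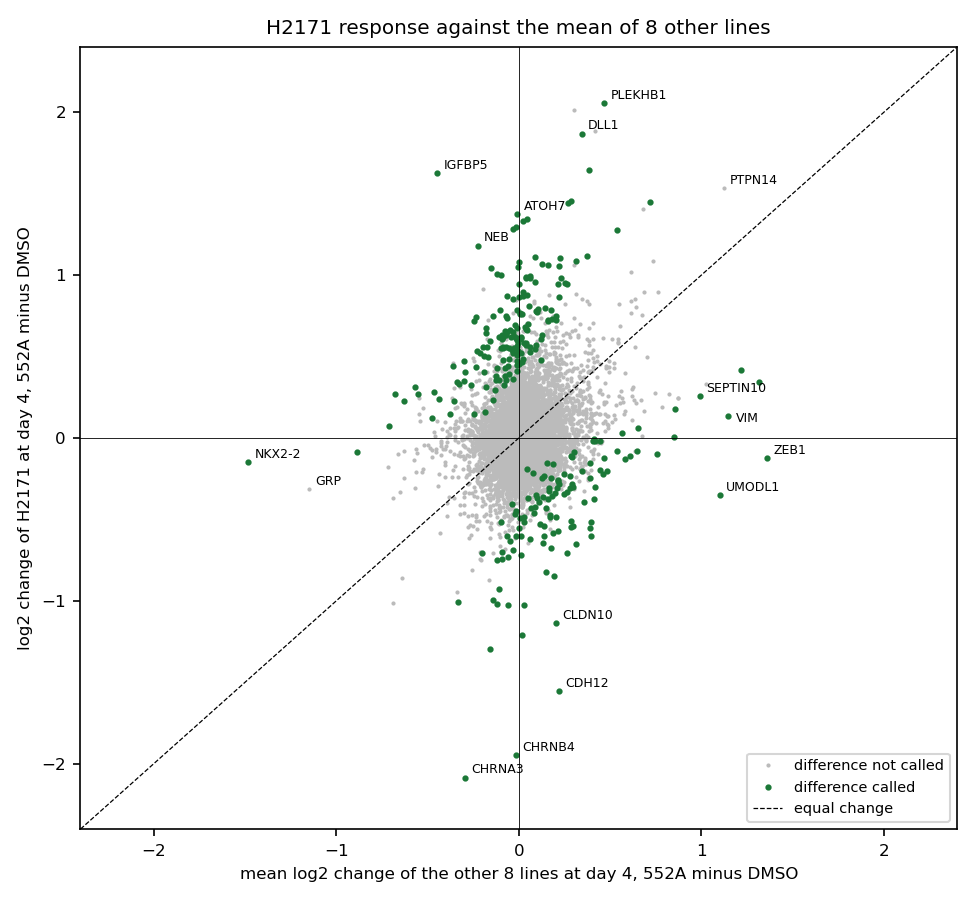
Change of each gene in H2171 (y axis) against the mean change of the other 8 lines (x axis), both at day 4, log2, 552A minus DMSO. Green points are the 280 genes whose difference was called, and the dashed line marks equal change. CHRNA3, CHRNB4, DLL1 and IGFBP5 lie far from 0 on the y axis, and ZEB1, VIM and NKX2-2 far from 0 on the x axis.

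Calls of H2171 were partly shared. Of the 220 genes that rose, 102 were called higher in none of the other 8 lines, 49 in 1 and 35 in 2, and of the 88 that fell, 48 were called lower in none and 23 in 1. The same counts over all 15352 genes are not given, so these numbers do not show whether sharing was frequent or rare. PTPN14 and OVOL2 were called higher in 6 other lines, the most of any gene, and NCR3LG1, a ligand of a natural killer cell receptor, OCLN and ZFP36L1 in 5. NCR3LG1 read 9.15 and 9.23 under 552A and 8.52 and 8.51 under DMSO in H2171, a change of 0.68 ± 0.12 (adjusted p = 0.000191). H1417 shared most genes that rose, 48, which are 21.8% of those of H2171 and 5.65% of those of H1417. H69 shared 35 (15.9% and 9.33%), and SHP-77 shared 6 (2.73% and 13.6%). Over all genes, Pearson's r between the changes of H2171 and those of another line ran from -0.01 (NCI-H446) to 0.164 (H69), across 15352 genes that are not independent. The mean of the other lines had the same sign as H2171 for 72.3% of the genes that rose and 67.0% of those that fell, against 54.1% of all genes. The lines differed in how many genes were called at day 4, which bounds what can be shared. The share called higher was 1.43% in H2171, 2.66% in COLO668, 5.53% in H1417, 2.44% in H69, 0.762% in NCI-H146, 8.06% in NCI-H446, 3.11% in NCI-H510, 3.56% in NCI-H526 and 0.287% in SHP-77. The share called lower was 0.573% in H2171, and 1.62%, 3.71%, 1.73%, 0.326%, 2.61%, 1.59%, 2.36% and 0.215% in the other lines in the same order. The DMSO group of NCI-H446 held the day 4 array that stood apart.

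Genes called in H2171 were also set in chromosome order, by the gene order of GRCh38.p14, a grouping chosen after the values were seen. Among 15308 pairs of neighbouring tested genes, both were called in 17 pairs, 15 of them in the same direction. These 15 formed 11 runs with 26 genes, 8 runs that rose and 3 that fell. With 2.01% of all genes called, some neighbours would both be called in any gene order, and how many was not tested. On chromosome 17, 4 neighbours rose: NOG (1.64), C17orf67 (0.61), the lipid kinase DGKE (0.63) and TRIM25, a ubiquitin ligase of antiviral signalling (0.96). TRIM25 read 10.00 and 10.10 under 552A and 9.11 and 9.07 under DMSO (± 0.10, adjusted p = 6.06e-10), and the genes on either side of the run, ANKFN1 and COIL, both changed by 0.05 and were not called. With 1 array left out, NOG and TRIM25 kept their calls in all 4 cases, C17orf67 in 3 (0.38 to 0.83) and DGKE in 2 (0.51 to 0.76). On chromosome 1, KLHDC8A (1.08), LEMD1 (0.95), the noncoding RNA BLACAT1 (0.43) and the kinase CDK18 (0.57) rose between TMCC2 (0.10) and SLC60A1 (-0.02). KLHDC8A and LEMD1 kept their calls whichever array was left out, BLACAT1 in 1 case (0.30 to 0.55) and CDK18 in none (0.54 to 0.61). The other runs held 2 genes each, among them KATNIP (0.69) with GSG1L (0.81) on chromosome 16, ADCK2 (1.33) with DENND2A (0.55) on chromosome 7, and CHRNA3 with CHRNB4. ADCK2, a mitochondrial kinase-like protein, read 10.50 and 10.61 under 552A and 9.22 and 9.23 under DMSO (± 0.10, adjusted p = 1.99e-14). KATNIP was called in 3 of 4 leave-one-out cases (0.58 to 0.81) and DENND2A in 1 (0.46 to 0.64).

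**Figure D5:**
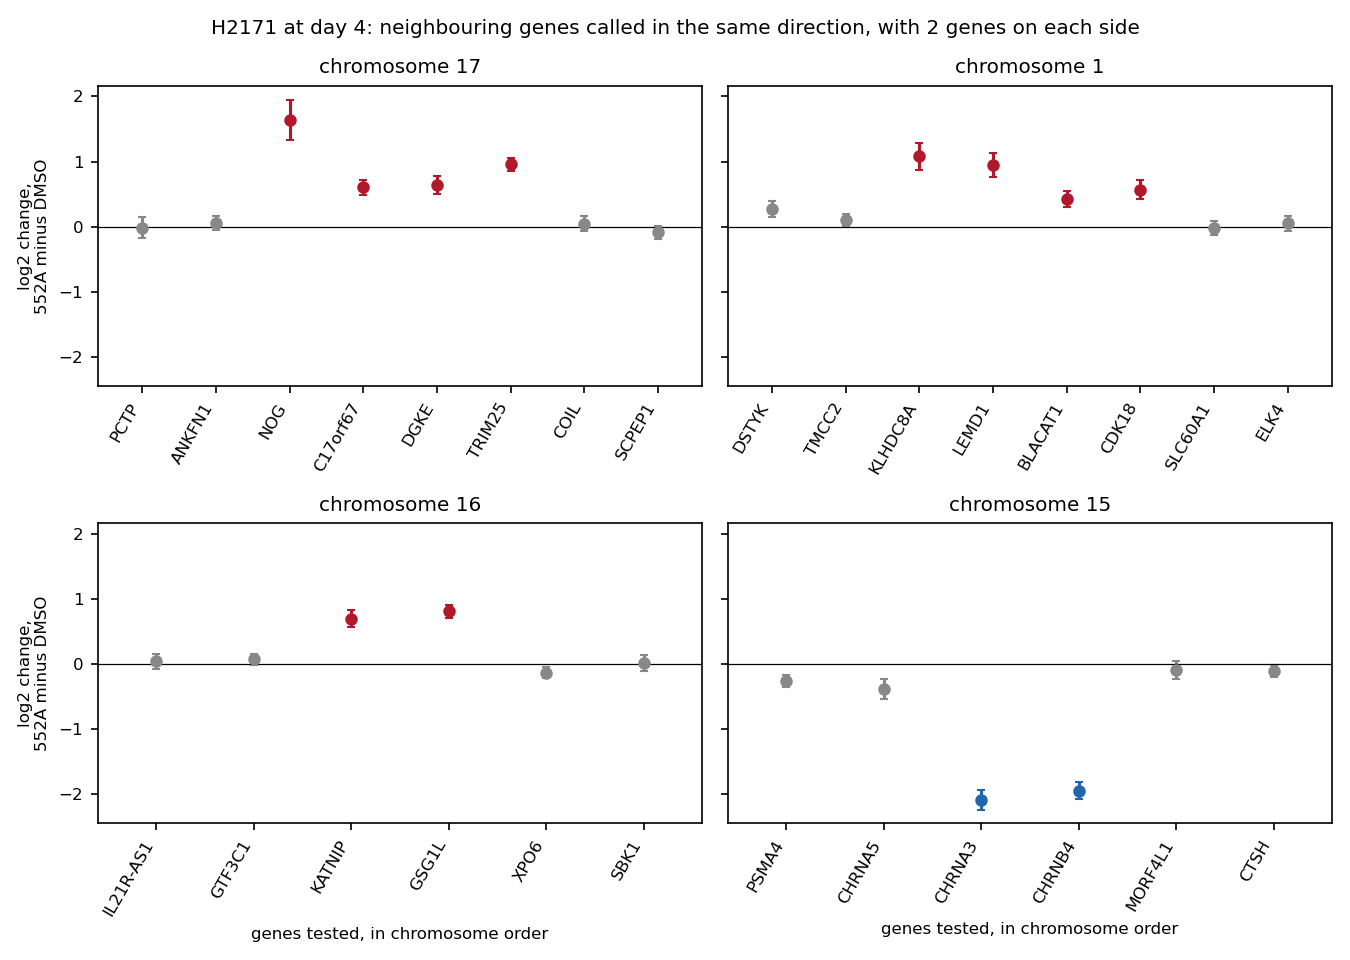
Change in H2171 at day 4 (y axis, log2, 552A minus DMSO, bars 1 SE) of genes called in the same direction beside each other and of the 2 tested genes on each side, in chromosome order. Red and blue points are called genes, grey points are not. NOG, C17orf67, DGKE and TRIM25 lie above 0 between ANKFN1 and COIL at 0.05, and CHRNA3 and CHRNB4 lie near -2 beside CHRNA5 at -0.38.

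The genes with the largest gaps between H2171 and all other lines under DMSO are given as a description with no test. SLC7A7, an amino acid transporter, had a mean of 12.87 in H2171 and 6.20 to 6.60 in the other 8. IRF8, a transcription factor of myeloid and B cells, had 11.66 against 7.13 to 7.36, the immunoglobulin heavy chain gene IGHM 12.06 against 7.48 to 8.32, and CD163L1, a scavenger receptor, 12.08 against 6.41 to 8.94. The leukocyte marker PTPRC was dim in H2171, as given above. The 3 immune markers above 7.41 were CD79A, CD3E and CD3D, with DMSO means of 8.48, 7.66 and 7.455. GATM, an enzyme of creatine synthesis, had 12.66 against 5.32 to 9.35, and SOCS1, an inhibitor of cytokine signalling, 11.24 against 6.61 to 8.04. The collagen COL13A1 had 9.98 against 4.55 to 5.36. Genes dim in H2171 and bright in every other line were the fatty acid binding protein FABP5, with 4.10 against 12.57 to 13.97, the GTPase RAB4A, with 4.67 against 9.87 to 11.21, and the fatty acid elongase ELOVL6, with 5.19 against 9.26 to 11.77. LOC101927089, also set apart in H2171 under DMSO, was called higher under 552A, with means of 9.85 under 552A and 9.17 under DMSO. Its change was 0.68, and 0.585 to 0.773 with 1 array left out. FABP5 was called under 552A as well, with 4.81 and 4.58 under 552A and 4.19 and 4.02 under DMSO, all of them dim (0.59 ± 0.11, adjusted p = 0.000242). It was not called without 552A replicate 1 (0.48 to 0.71).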

How the data were processed

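The arrays measured total RNA, labelled by the standard Affymetrix procedure per the labels' protocols. The authors deposited log2 values per probe set (3.15 to 15.18). How the authors corrected, scaled and summarised the probes is not given in the sources used here. Array medians lay between 7.36 and 7.46, so the values were used as deposited. Precision is limited by the number of arrays.

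GEO's probe annotation paired 41091 of 54675 probe sets with 1 gene symbol, 1801 with several symbols and 11721 with no symbol, and 62 were controls. Probe sets with 1 symbol were kept if the mean of at least 1 of 42 groups exceeded 7.41. The brightest probe set stood for its gene, those ending in _x_at set aside where another existed, which left 15352 of 19775 genes. limma 3.58.1 in R 4.3.3 (lmFit, eBayes, two-sided, Benjamini-Hochberg) fitted a mean per group over 88 arrays, with 46 residual and 6.52 prior degrees of freedom, so arrays of other lines enter the error of H2171. SE is the fit's standard error. Other software was the data.table package (1.17.8), matplotlib 3.10.9, numpy 2.4.6 and pandas 2.3.3 under Python 3.11.15. On simulated data for the H2171 comparison (15352 genes), the fit recovered 54% of genes changed by 0.5, 94% by 1 and 96% by -1, and called 0.066% of unchanged genes.

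The genes named are the 12 largest called changes per direction with separate arrays, the 6 largest called differences per direction, the 4 largest called members of each list (the 2 largest members, by value only, where none was called), a fixed set of regulators and the genes that set DMSO-treated H2171 most apart. The members and lists were chosen with earlier results of these data known. Alternatives were quantile normalization, other probe set filters, the mean of a gene's probe sets, an intensity trend, subsets of arrays, each H2171 array or other line left out, and the replicate number as a block. The removal of 6 arrays, the neighbouring genes and the dim limit were chosen after seeing the data.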

Additional observations from a re-analysis of the deposited data

Results flagged for a closer look

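The H2171 response minus the mean response of the other 8 lines at day 4 passed the limma test for 55 of the 125 genes followed here. Over all genes tested the share was 1.82%. Many of the 125 were picked by a called change or difference in these same data, so the count of 55 is a description only. The value given for each gene is that difference on the log2 scale. Positive differences were those of IGFBP5 (2.07), PLEKHB1 (1.59), DLL1 (1.52), NEB (1.41), ATOH7 (1.38), NKX2-2 (1.33), RASGEF1A (1.30), NOG (1.26), SMAD3 (1.17), RETREG1 (1.17), PDGFC (0.73), SOX2 (0.85), CEBPA (0.69), OVOL2 (0.74) and ELF3 (0.64). Others above 0 were those of ADCK2 (1.31), TRHDE (1.20), KLHDC8A (1.08), SYT17 (0.93), TRIM25 (0.87), HEPACAM2 (0.82), GSG1L (0.75), FABP5 (0.75), LEMD1 (0.73), BAX (0.71), KATNIP (0.71), DGKE (0.70), PARP12 (0.69), LOC101927089 (0.64), C17orf67 (0.60), SYNGR3 (0.60), KDM4C (0.57), FGF11 (0.48) and PDIA3 (0.47).

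Negative differences were those of CHRNB4 (-1.93), CHRNA3 (-1.79), CDH12 (-1.77), ZEB1 (-1.49), UMODL1 (-1.45), CLDN10 (-1.34), GHRL (-1.23), HS3ST1 (-1.14), FGFR3 (-1.06), VIM (-1.01), COL4A2 (-0.97), LOC728392 (-0.96), ACKR3 (-0.90), LGR6 (-0.85), RIGI (-0.74), SEPTIN10 (-0.74), ISL1 (-0.68), LMO2 (-0.67), S100A2 (-0.65), NCAM1 (-0.58) and S100A3 (-0.44). Single other lines could move as H2171 did, and NOG and RASGEF1A, with changes of 1.64 and 1.34 in H2171, were also called higher in NCI-H446, at 2.11 and 1.70. HS3ST1, at -1.30 in H2171, was called lower in NCI-H526 (-1.74) and higher in H1417 (0.84). OVOL2 was called higher in 6 other lines, PDGFC and RETREG1 each in 4, and LMO2 was called lower in 3. The changes of ZEB1, VIM, UMODL1, NKX2-2, SEPTIN10 and HEPACAM2 in H2171 itself were not called. Leaving out single H2171 arrays ended 18 to 21 of these 55 calls per array, those of NOG, PDGFC, FGFR3, LMO2, ISL1, PARP12, HEPACAM2, LEMD1 and FGF11 in all 4 cases. The differences of NOG, PDGFC, LMO2, PDIA3 and FGF11 were not called with the replicate number as a block.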

How the results depend on the processing

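The 308 calls of 552A minus DMSO in H2171 became 151 to 199 when 1 of its 4 arrays was left out (151 without 552A replicate 1, 154 without 552A replicate 2, 199 without DMSO replicate 1 and 165 without DMSO replicate 2). The H2171 arrays alone gave 143, and 662 were called without the 6 arrays that stood apart, where 60.6% of calls were rises in place of 71.4%. Quantile normalization, the probe set filters, the mean of probe sets, an intensity trend and day 4 arrays only gave 221 to 399. For the difference from the other lines, 280 became 114 to 160 with 1 H2171 array left out, 608 without the 6 arrays and 548 against H69 and H1417 alone. Leaving out 1 other line gave 242 to 310. Fewer arrays enlarge the errors, and the cause of the other shifts was not tested.

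The labels give same-numbered H2171 arrays nothing in common but the number. Their deviations correlated at -0.079 over all genes, which does not settle whether they were paired. With the replicate number as a block, 308 genes were called (276 shared) and 271 differences, and the 4 H2171 arrays alone with the block gave 55, which is no sign of a weaker effect. The signs of SOX2 (change -0.013, difference -0.02) and RIGI (0.17 and 0.16) turned with a filter on H2171 groups, which picks another probe set. With the mean of probe sets, REST was called at 0.65 (adjusted p = 0.000105), since 1 dim probe set changed by 1.32, and the difference of PDIA3 was -0.005. Against H69 and H1417 the difference of ISL1 was 0.14. Of 80 called changes of named genes, 44 to 51 kept their call with 1 array left out, and 61 with the mean of probe sets.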
